A study of Mus musculus with 35 samples.

Results

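The 10 transcripts described here encode proteins that store, release, pump, buffer or sense calcium inside neurons: the inositol trisphosphate (IP3) receptor Itpr1, the ryanodine receptors Ryr1, Ryr2 and Ryr3, the endoplasmic reticulum calcium pump Atp2a2, the plasma membrane calcium pump Atp2b1, the calmodulin-dependent kinases Camk2a and Camk4, the calcium buffer calbindin (Calb1) and the calcium sensor hippocalcin (Hpca). They were taken by gene symbol from the 22099 genes listed in the striatal expression table, and 10 of 10 were among the 17639 genes that passed a filter on low counts. RNA came from the striatum of 35 female C57BL6/J mice, 1 library per mouse. HttQ111/+ mice carry 1 knock-in allele of huntingtin with an expanded CAG repeat, under the control of the endogenous promoter, and their Htt+/+ littermates carry 2 wild-type alleles. Each treatment group held 6 mice per genotype, whether on saline, control ASO or Htt ASO, except that 5 Htt+/+ mice were on control ASO. The tissue was the right hemistriatum, apart from 1 Htt+/+ mouse on Htt ASO labelled as left. An ASO is an antisense oligonucleotide; Htt ASO is directed at the transcripts of both alleles, and control ASO matches no mouse sequence. Injections were intraperitoneal and weekly, with either ASO given at 50 mg/kg and saline at a volume of 4 µL/g. They began at 2 months and ended at 10 months of age, when the mice were killed (299 to 304 days old), and no group went uninjected.

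Calcium in a neuron is drawn from 2 sources, entry across the plasma membrane and release from the endoplasmic reticulum. Release runs through IP3 receptors, which open when phospholipase C has made IP3, and through ryanodine receptors, which open on calcium itself. SERCA pumps return calcium to the store, and PMCA pumps and sodium-calcium exchangers expel it from the cell. Calcium that binds calmodulin switches on the CaM kinases, of which Camk2a acts at synapses and Camk4 in the nucleus, where it phosphorylates transcription factors such as CREB. The striatum is made up largely of GABAergic projection neurons, which use these routes to couple glutamate and dopamine input to gene expression.

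Total counts per mouse lay between 32200158 and 38641924. Htt transcript, listed under its older symbol Hdh, was 66.6 to 104 CPM (the gene's reads relative to the library's total, after TMM scaling of that total) in Htt+/+ and 60.9 to 93.1 CPM in HttQ111/+ mice. Markers of striatal projection neurons were present in every library, and 8 of the 9 fell with genotype while 1 rose. Their summed level was 5588 to 7003 CPM in Htt+/+ and 4022 to 4823 CPM in HttQ111/+ mice, with no overlap, and the part of this in the results for the 10 transcripts was not tested. In whole tissue, fewer cells of a type and less RNA per cell cannot be told apart. Endothelial (3 of 4), microglial (3 of 5), astrocytic (2 of 5), oligodendrocytic (2 of 5) and interneuron (1 of 6) markers were also lower, whereas 0 of 6 cortical neuron, 0 of 3 choroid plexus and 0 of 2 red blood cell markers passed the limma test for genotype over treatments at an adjusted p under 0.05. Choroid plexus markers summed to 1526 CPM in 1 Htt+/+ mouse on control ASO and to no more than 119 CPM in the others. Sample titles carry an L with a digit, taken here as the sequencing lane although no source says so. Lane 7 held 6 HttQ111/+ mice and no Htt+/+ mouse.

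Measured per kilobase of the longest coding transcript, the 10 transcripts spanned more than 2 orders of magnitude in Htt+/+ striatum. Hpca was the highest, at 816 ± 61.6 CPM per kb (SD, n = 17), followed by Camk2a at 347 ± 15.5, Atp2a2 at 259 ± 15, Atp2b1 at 148 ± 11.1 and Itpr1 at 126 ± 10.6 CPM per kb. Calb1 stood at 59.6 ± 4.23, Camk4 at 34.7 ± 3.57, Ryr3 at 15.2 ± 1.07, Ryr1 at 7.33 ± 1.04 and Ryr2 at 5.75 ± 0.383 CPM per kb. Neighbours in this order did not overlap between their lowest and highest mice, except Atp2b1 with Itpr1 and Ryr1 with Ryr2. In HttQ111/+ striatum the last pair changed places, with Ryr1 at 2.10 to 3.93 and Ryr2 at 4.32 to 5.80 CPM per kb. Ryr3, a ryanodine receptor subtype found in brain and other tissues, was the main one on this scale in both genotypes: of the 3 receptors' summed level per kb it made up 53.8% ± 2.32 (SD, n = 17) in Htt+/+ and 61.1% ± 1.27 (SD, n = 18) in HttQ111/+ mice. The share of Ryr1 was 21.3% to 29.8% in Htt+/+ and 11.8% to 17.8% in HttQ111/+ mice.

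To ask whether the knock-in allele altered these transcripts, HttQ111/+ mice were compared with Htt+/+ mice, averaged over the 3 treatments. Of the 10 transcripts, 9 fell, 0 rose and only Calb1 did not pass the test (limma after voom, adjusted p under 0.05 over all tested genes). Genotype called 39.8% of all tested genes, 18% lower and 21.8% higher. The median log2 fold change of the 10 was −0.34, against 0.0037 for all genes tested. The 10 were chosen with earlier results of these data known, so these contrasts with all genes describe them and are no independent test. Ryr1 fell the most, to 38.2% of its Htt+/+ level, and ranked 38 by decrease among 17639 genes. Camk4, at 58.2%, ranked 150, and the other 7 that fell lay between 69.7% and 90.2% of the Htt+/+ level. The lowest Htt+/+ mouse exceeded the highest HttQ111/+ mouse for Itpr1, Ryr1 and Camk4, 3 of 10, whereas 2.21% of all tested genes had ranges that did not overlap in either direction.

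**Figure D1:**
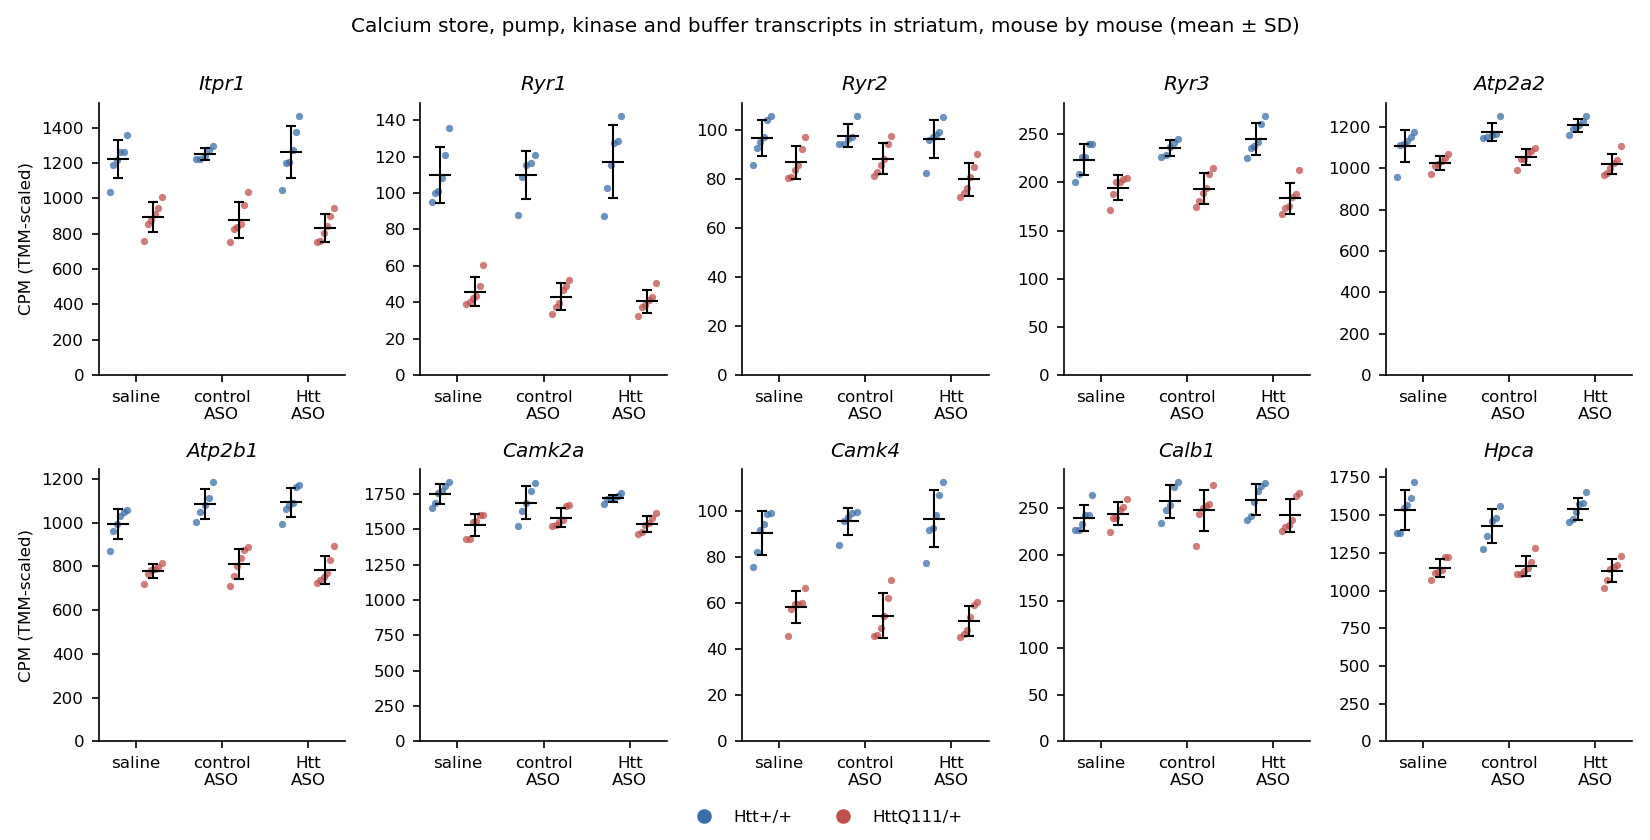
Expression of each transcript in each mouse (vertical axis, CPM on TMM-scaled library sizes, starting at 0) by treatment (horizontal axis), with Htt+/+ in blue and HttQ111/+ in red; points are mice and bars are mean ± SD of 5 or 6 mice. Ryr1, Camk4, Itpr1 and Atp2b1 separate the genotypes within every treatment, whereas the Calb1 points of both genotypes share 1 range.

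Among the release channels, Ryr1, best known as the calcium release channel of skeletal muscle, differed the most. In Htt+/+ mice, Ryr1 ran from 94.9 to 136 CPM on saline (median 105), stood at 88.0, 109, 116, 117 and 121 CPM in the 5 mice on control ASO, and ran from 87.2 to 142 CPM on Htt ASO (median 121). Among HttQ111/+ mice, the saline group spanned 39.3 to 60.3 CPM (median 42.9), the control ASO group 33.6 to 52.4 CPM (median 43.1) and the Htt ASO group 32.2 to 50.8 CPM (median 39.8). All 18 HttQ111/+ mice lay below the lowest of the 17 Htt+/+ mice. On the log2 scale this was a change of −1.39 (standard error 0.072, adjusted p = 6.48e-17 by limma after voom).

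Itpr1, the main neuronal IP3 receptor, also fell. In Htt+/+ mice, it ran from 1037 to 1359 CPM on saline (median 1240.2), stood at 1222, 1223, 1243, 1272 and 1296 CPM on control ASO, and ran from 1049 to 1468 CPM on Htt ASO (median 1241). Among HttQ111/+ mice, the saline group spanned 759 to 1010.5 CPM (median 895), the control ASO group 754 to 1035 CPM (median 848) and the Htt ASO group 752 to 948 CPM (median 823). The lowest Htt+/+ and the highest HttQ111/+ mouse were 1037 and 1035 CPM, so the gap between the genotypes was narrow. The fitted log2 fold change was −0.52 (standard error 0.045, limma adjusted p = 1.44e-11). The other ryanodine receptors changed less. Ryr3 averaged 235 ± 16.5 CPM in Htt+/+ and 191 ± 14.98 CPM in HttQ111/+ mice (SD, n = 17 and 18), with 12 HttQ111/+ mice below the lowest Htt+/+ mouse (log2 fold change −0.30, standard error 0.033, adjusted p = 4.64e-09). Ryr2, the cardiac release channel that is also found in brain, averaged 96.7 ± 6.44 CPM and 84.8 ± 7.30 CPM in the same order, and the ranges overlapped (log2 fold change −0.19, standard error 0.035, adjusted p = 3.89e-05).

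Promoter sequence from RefSeq (GRCm38.p6, not the build on which the authors quantified) is shown for 4 of the 10 transcripts, matched by symbol. The search left out 1 chromosome, so a transcript that is not shown may still have a listed promoter. The 4 were Ryr1, which fell the most, its relative Ryr2, which fell less, and Atp2b1 and Hpca, which lay between them. Each run is the 250 bases before the most upstream listed start, 5′ to 3′ on the gene's strand, and capitals mark matches, on either strand, to a GC box (GGGCGG) or a CCAAT box (CCAAT).
Ryr1 (chr7:29125152-29125401, minus strand): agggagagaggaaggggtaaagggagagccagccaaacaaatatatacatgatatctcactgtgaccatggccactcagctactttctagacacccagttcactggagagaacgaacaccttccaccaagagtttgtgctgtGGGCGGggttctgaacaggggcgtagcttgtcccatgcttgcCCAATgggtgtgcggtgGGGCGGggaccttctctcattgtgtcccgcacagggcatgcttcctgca
Ryr2 (chr13:12106946-12107195, minus strand): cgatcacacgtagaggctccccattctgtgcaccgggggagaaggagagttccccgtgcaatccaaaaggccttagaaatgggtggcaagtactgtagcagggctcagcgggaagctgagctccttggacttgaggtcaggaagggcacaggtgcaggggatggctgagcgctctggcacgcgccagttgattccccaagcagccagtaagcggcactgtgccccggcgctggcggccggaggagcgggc
Atp2b1 (chr10:98914392-98914641, plus strand): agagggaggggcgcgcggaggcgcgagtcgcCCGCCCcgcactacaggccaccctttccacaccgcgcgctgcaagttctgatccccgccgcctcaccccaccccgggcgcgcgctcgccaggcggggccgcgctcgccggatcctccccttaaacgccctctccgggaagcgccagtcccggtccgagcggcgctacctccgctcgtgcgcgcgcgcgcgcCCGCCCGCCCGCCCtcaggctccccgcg
Hpca (chr4:129121748-129121997, minus strand): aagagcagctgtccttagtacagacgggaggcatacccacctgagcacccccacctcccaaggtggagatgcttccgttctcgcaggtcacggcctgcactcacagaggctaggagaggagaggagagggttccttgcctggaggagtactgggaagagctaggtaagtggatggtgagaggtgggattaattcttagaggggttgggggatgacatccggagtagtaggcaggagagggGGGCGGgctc
Ryr1 held 2 GC boxes, 108 and 49 bases before the start counted to the first base of the match, and 1 CCAAT box at 66 bases. Atp2b1 held 4 GC box matches on the reverse strand, the last 3 of which overlapped, and Hpca held 1. Ryr2 held no match to any motif searched. The cAMP response element to which CREB binds (TGACGTCA), its half-site (TGACG, which every full element contains) and a TATA box (TATAAA) had no match in these 4 windows. Of 32851 mouse promoter windows of this length, 32.7% held a GC box, 33.9% a CCAAT box, 1.55% the full element, 17.8% the half-site and 12.4% a TATA box. A match or its absence describes these letters alone.

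Both pumps fell, the plasma membrane pump more than the store pump. Atp2b1, which expels calcium across the plasma membrane, spanned 872 to 1186 CPM in Htt+/+ mice and 708.6 to 892 CPM in HttQ111/+ mice, and 15 of the 18 HttQ111/+ mice lay below the lowest Htt+/+ mouse. The fitted log2 fold change was −0.42 (standard error 0.032, limma adjusted p = 1.48e-12). Atp2a2, which refills the endoplasmic reticulum, averaged 1162 ± 67.3 CPM in Htt+/+ and 1034 ± 41.6 CPM in HttQ111/+ mice (SD, n = 17 and 18). Of the Htt+/+ mice, 16 exceeded the highest HttQ111/+ mouse, and 1, on saline, was the lowest of all 35 mice at 959 CPM. The log2 fold change of Atp2a2 was −0.17 (standard error 0.022, adjusted p = 1.12e-07).

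The kinases fell by unequal amounts. Camk4, the nuclear kinase, ran from 75.6 to 99.4 CPM in Htt+/+ mice on saline (median 93.2), stood at 85.3, 96.0, 97.8, 99.3 and 99.9 CPM on control ASO, and ran from 77.5 to 113 CPM on Htt ASO (median 95.8). Among HttQ111/+ mice, the saline group spanned 45.9 to 66.8 CPM (median 59.8), the control ASO group 45.8 to 70.0 CPM (median 52.0) and the Htt ASO group 45.2 to 60.5 CPM (median 51.3). The 2 genotypes did not overlap (log2 fold change −0.78, standard error 0.058, adjusted p = 5.00e-13). Camk2a, an abundant postsynaptic kinase, averaged 1723 ± 76.9 CPM in Htt+/+ and 1552 ± 67.9 CPM in HttQ111/+ mice (SD, n = 17 and 18), with overlapping ranges and 5 HttQ111/+ mice below the lowest Htt+/+ mouse. Its change on the log2 scale, −0.15 (standard error 0.022, limma adjusted p = 8.36e-07), was the smallest of the 9 that passed the test.

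Of the calcium-binding proteins, Hpca, a neuronal calcium sensor that moves to membranes when it binds calcium, fell and Calb1, a cytosolic buffer, did not pass the test. Hpca averaged 1507 ± 114 CPM in Htt+/+ and 1148 ± 65.1 CPM in HttQ111/+ mice (SD, n = 17 and 18), and 17 of the 18 HttQ111/+ mice lay below the lowest Htt+/+ mouse. The fitted log2 fold change was −0.39 (standard error 0.031, limma adjusted p = 3.13e-12). Calb1 spanned 226 to 278 CPM in Htt+/+ mice and 209 to 275 CPM in HttQ111/+ mice, so that the ranges almost coincided. The difference of −0.042 on the log2 scale had a 95% confidence interval of −0.11 to 0.023 (limma adjusted p = 0.317). This interval leaves out a decrease of the size measured for any of the other 9.

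The genotype difference was then examined within each treatment. In saline-treated mice, 8 of the 10 fell (all but Ryr2 and Calb1), where 17.4% of all tested genes were called. On control ASO, 7 fell (all but Ryr2, Camk2a and Calb1), where 18.5% of genes were called. In this comparison 2 of 2 red blood cell markers also fell, their sum spanning 71.6 to 420.3 CPM in Htt+/+ and 18.4 to 139 CPM in HttQ111/+ mice, and their part in these results was not tested. On Htt ASO, 9 fell (all but Calb1), where 21.2% of genes were called. Itpr1, Ryr1, Ryr3, Atp2a2, Atp2b1, Camk4 and Hpca were called lower under each of the 3 treatments, 7 of 10, against 9.04% of all genes called in 1 direction under each. For Ryr1, the log2 fold change was −1.27 in the saline groups (standard error 0.12), −1.36 in the control ASO groups (0.13) and −1.53 in the Htt ASO groups (0.12). For Calb1, it was 0.028 with saline, −0.057 with control ASO and −0.098 with Htt ASO, none past the threshold (adjusted p = 0.806, 0.541 and 0.221 by limma). Lane 7 held HttQ111/+ saline replicates 1, 2 and 4, so leaving out its mice made that group smaller. Without the lane 7 mice, 6 fell on saline, as Ryr3 and Atp2a2 no longer passed. The log2 fold change of Ryr3 was then −0.17 (adjusted p = 0.0917 by limma), against −0.20 with all mice. For Atp2a2 it was −0.079 (adjusted p = 0.318), against −0.11. The Atp2a2 call on saline (log2 fold change −0.11, adjusted p = 0.0438) depended on single mice. Its adjusted p rose to between 0.0521 and 0.12 when any 1 of 10 mice was left out: Htt+/+ saline replicates 1, 2, 4, 5 and 6, HttQ111/+ saline replicates 1 to 4, and Htt+/+ control ASO replicate 5. Ryr2 on saline (log2 fold change −0.16, adjusted p = 0.0680) passed the threshold without Htt+/+ saline replicate 5, HttQ111/+ saline replicate 6 or Htt+/+ Htt ASO replicate 6 (adjusted p 0.0228 to 0.0400), and Camk2a on control ASO (log2 fold change −0.091, adjusted p = 0.101) passed it without replicate 5 of the Htt+/+ mice on control ASO (−0.13, adjusted p = 0.0155).

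**Figure D2:**
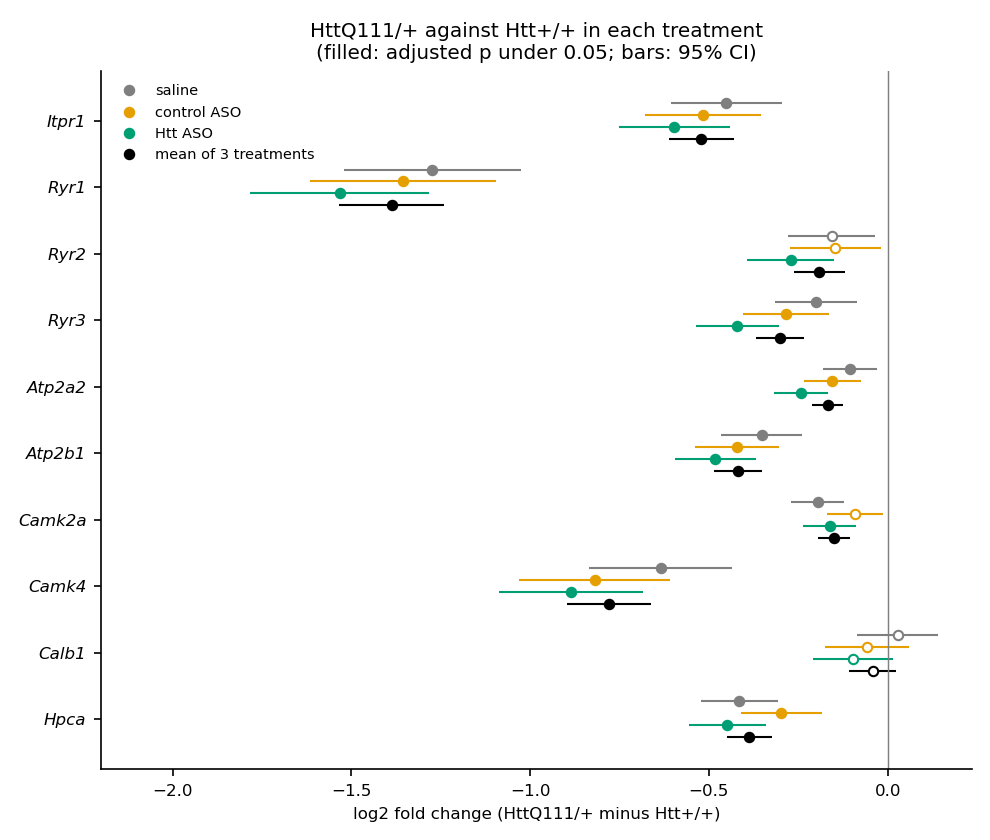
Genotype difference of each transcript (horizontal axis, log2 fold change, HttQ111/+ minus Htt+/+) on saline, control ASO, Htt ASO and averaged over them, with 95% confidence intervals from limma; filled points passed an adjusted p of 0.05 and open points did not. Every filled point lies below 0, Ryr1 farthest at −1.27 to −1.53, and the 4 Calb1 points are open.

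Treatment was compared over both genotypes, to ask whether peripheral injection of Htt ASO altered these striatal transcripts. By limma, 0 of the 10 passed the threshold for Htt ASO against control ASO (0.935% of all tested genes called), Htt ASO against saline (1.47%) or control ASO against saline (0%). At an unadjusted p under 0.05, the same comparisons gave 0, 1 and 2 of the 10 and 1140, 1652 and 1357 of all genes. EdgeR's quasi-likelihood test and DESeq2 also called 0 of the 10 in each. The log2 differences between Htt ASO and control ASO lay between −0.086 (Ryr2, 95% confidence interval −0.17 to 0.0027) and 0.038 (Hpca, −0.040 to 0.12). For Ryr1 the difference was −0.0045, with a confidence interval of −0.18 to 0.18, and for Camk4 it was −0.024 (−0.17 to 0.12). Atp2a2 was 0.058 higher on Htt ASO than on saline (confidence interval 0.0054 to 0.11, adjusted p = 0.462) and 0.064 higher on control ASO than on saline (0.0099 to 0.12, adjusted p = 0.599), 2 differences that share the saline mice. Atp2b1 stood at 0.073 (adjusted p = 0.575) and 0.093 (adjusted p = 0.606) in the same comparisons. In Htt+/+ mice alone, Atp2a2 was 0.13 higher on Htt ASO than on saline (confidence interval 0.052 to 0.20, adjusted p = 0.140), the lowest adjusted p of any of the 10 in a treatment comparison within 1 genotype. The saline group there included replicate 3, at 959 CPM. Within genotypes, Htt ASO minus control ASO was above 0 for 9 of the 10 in Htt+/+ mice and for 0 in HttQ111/+ mice. Ryr2 in HttQ111/+ mice stood at −0.15 (confidence interval −0.27 to −0.026, limma adjusted p = 0.573).

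**Figure D3:**
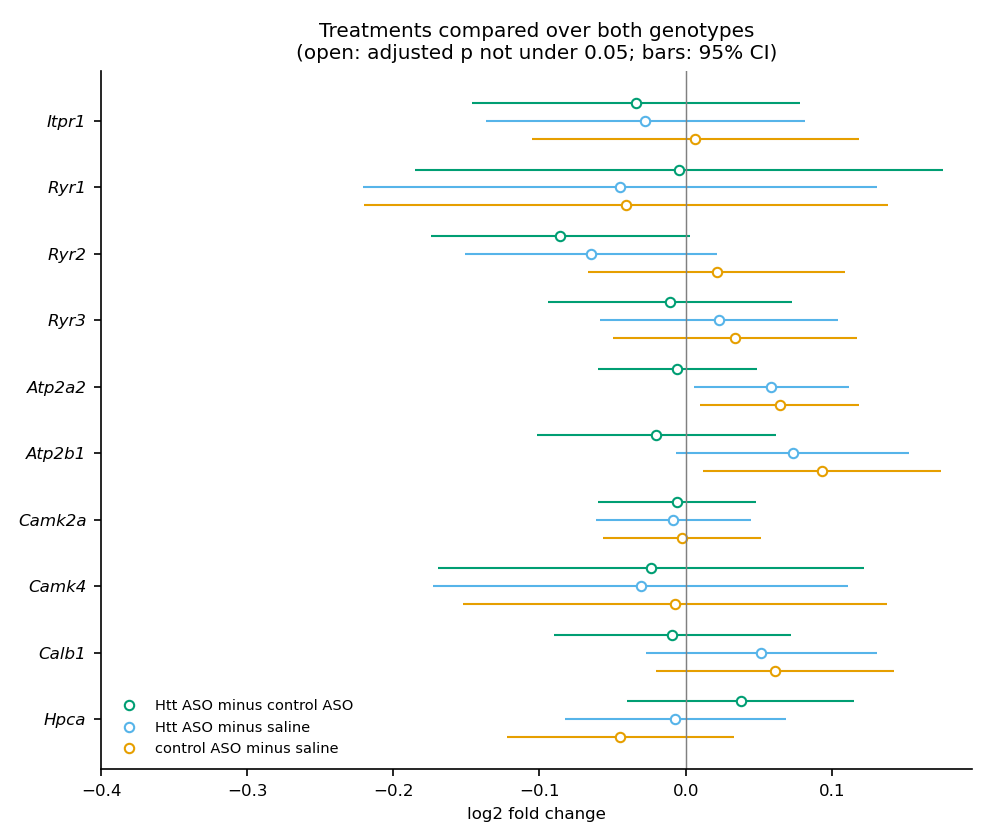
Treatment differences over both genotypes (horizontal axis, log2 fold change) for each transcript, with 95% confidence intervals from limma. All 30 points are open, since none passed an adjusted p of 0.05, and all lie between −0.086 and 0.093.

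Whether the genotype difference itself depended on treatment was tested as an interaction. None of the 10, and 0% of all tested genes, passed the threshold in any of the 3 interactions by limma, while DESeq2 called 0 of the 10 and 1 gene in all. At an unadjusted p under 0.05, limma gave 2 of the 10 and 973 of 17639 genes for Htt ASO against saline, and 0 of the 10 for the other two. They were Ryr3, where the genotype differences differed by −0.22 on the log2 scale (standard error 0.080, adjusted p = 0.850 by limma), and Atp2a2, at −0.14 (standard error 0.052, adjusted p = 0.850), both named after their values were seen. In Htt+/+ mice, Ryr3 had medians of 226 CPM on saline and 240.0 CPM on Htt ASO, and in HttQ111/+ mice 200.1 and 180.2 CPM. The same mouse, Htt+/+ saline replicate 3, was the lowest of its group for Ryr3 (200.3 CPM) and Atp2a2 (959 CPM). The mouse labelled as left hemistriatum, in the Htt+/+ group on Htt ASO, was the lowest of its 6 for 7 of the 10 transcripts. Many of the 10 varied together within groups, the share over all genes was not computed, and an effect of hemisphere was not tested.

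Within sequencing lanes, 9 of the 10 transcripts kept their direction. For these 9, the HttQ111/+ mean was the lower one in all 5 lanes with mice of both genotypes. For Itpr1, Ryr1 and Camk4, whose genotype ranges did not overlap, no other outcome was possible. Lanes held as few as 2 mice of a genotype, with treatments mixed, and the share over all genes was not computed. The log2 difference ran from −1.58 to −1.12 for Ryr1, from −0.91 to −0.63 for Camk4 and from −0.60 to −0.41 for Itpr1. Of the 9, Atp2a2 came closest to 0, at −0.22 to −0.033. Calb1 was lower in 4 lanes and higher in 1 (−0.10 to 0.19).

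The same comparison was read in 106 further calcium genes, arranged by role, of which 100 were tested. By genotype over treatments, 38 fell, 24 rose and 38 did not pass, with a median log2 fold change of −0.030. Of all tested genes, 18% were called lower and 21.8% higher, so the rises were near the share over all genes. The counts of each list below stand against the same shares. The lists held genes that moved both ways.

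In IP3 signalling, 6 of 10 fell and 1 rose. Itpka, which phosphorylates IP3, fell from 116 to 85.1 CPM (log2 fold change −0.43, adjusted p = 2.18e-11), and Plcb1, a phospholipase C that makes IP3, fell from 249.7 to 192 CPM (−0.38, adjusted p = 8.30e-11). Among partners of ryanodine receptors, 3 of 13 fell and 3 rose. Homer1, a scaffold that ties glutamate receptors to IP3 and ryanodine receptors, fell from 182 to 131 CPM (−0.48, adjusted p = 1.60e-12). Fkbp1b, an immunophilin that binds and stabilises the closed ryanodine receptor, rose from 3.54 to 4.30 CPM (0.28, adjusted p = 0.000146).

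Of 3 further genes of SERCA and SPCA pumps and their regulators, 0 passed limma's test, and 1, Atp2a3, named after its values were seen, had an unadjusted p under 0.05 (8.87 and 8.25 CPM, log2 fold change −0.10, adjusted p = 0.0735). Of 3 further PMCA genes 1 fell, Atp2b2, from 700.4 to 580.4 CPM (−0.27, adjusted p = 5.26e-11). Among sodium-calcium exchangers, some of which also move potassium, 4 of 7 fell and 1 rose, led by Slc8a2 (−0.29, adjusted p = 4.85e-08) and Slc24a4 (−0.28, adjusted p = 0.000150). Store-operated entry, in which STIM proteins sense an empty store, had 1 of 6 lower and 2 higher: Stim2 fell (−0.14, adjusted p = 2.72e-06), and Saraf, which restrains that entry, rose (0.097, adjusted p = 1.73e-06). Of 8 genes of mitochondrial uptake, 5 rose and 1 fell. Mcu, the pore of the uniporter, rose from 11.2 to 13.0 CPM (0.22, adjusted p = 2.32e-06), and its dominant-negative relative Mcub, at 1.72 and 1.27 CPM, fell (−0.45, adjusted p = 4.14e-05). Of 8 calcium-binding proteins of the endoplasmic reticulum, 3 rose and 1 fell. Hspa5, a chaperone that also binds calcium in the store, rose from 395 to 463 CPM (0.23, adjusted p = 2.11e-05), and Rcn1 fell (−0.15, adjusted p = 5.77e-05).

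Downstream of calcium, 7 of 12 kinases and kinase regulators fell and 2 rose. Camk1g fell from 58.4 to 42.8 CPM (−0.45, adjusted p = 2.77e-08), and Camkk1, a kinase that activates CaM kinases I and IV, fell from 127 to 97.4 CPM (−0.37, adjusted p = 1.59e-07). Of calmodulin and its small binding proteins, 4 of 6 fell and 1 rose. Pcp4, which speeds calcium exchange on calmodulin, fell from 672 to 462 CPM (−0.54, adjusted p = 6.78e-16), and Gap43, a growth cone protein that binds calmodulin without calcium, rose from 159 to 193 CPM (0.29, adjusted p = 3.73e-13). Of the phosphatase calcineurin and its regulators, 3 of 7 fell and 2 rose; its catalytic subunit Ppp3ca fell from 1538 to 1199 CPM (−0.36, adjusted p = 2.36e-15) and its regulatory subunit Ppp3r1 fell (−0.23, adjusted p = 6.32e-10). Of other EF-hand buffers, 2 of 6 fell and 1 rose, with Necab2 (−0.20, adjusted p = 3.26e-07) and Necab1 (−0.19, adjusted p = 1.29e-07) the lower ones. Of the genes listed as neuronal calcium sensors, which include relatives of Hpca, 5 of 11 fell and 3 rose, led by the potassium channel partners Kcnip3 (−0.28, adjusted p = 1.96e-06) and Kcnip2 (−0.22, adjusted p = 4.01e-07).

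**Figure D4:**
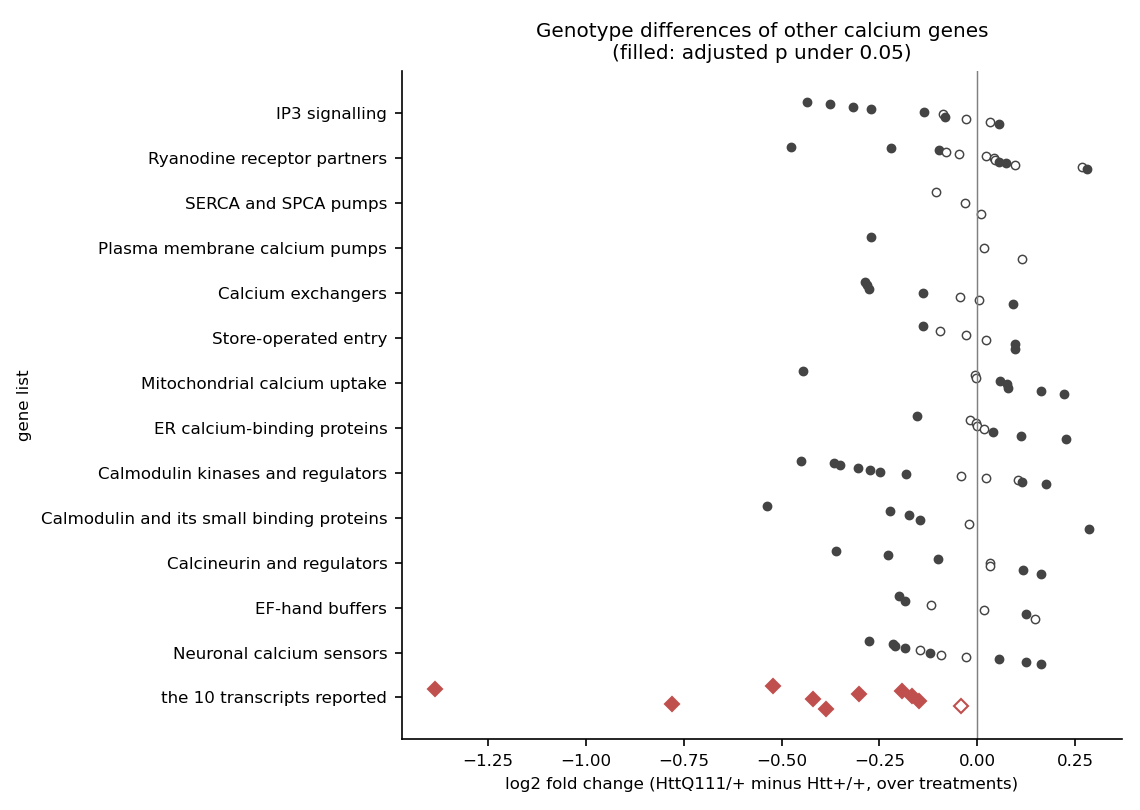
Genotype difference over treatments (horizontal axis, log2 fold change, HttQ111/+ minus Htt+/+) of each tested calcium gene, 1 row per list, with the 10 transcripts as red diamonds in the last row; filled marks passed an adjusted p of 0.05 and open marks did not. Most lists have filled marks on both sides of 0, from Pcp4 at −0.54 to Gap43 at 0.29, whereas all filled diamonds lie below 0.

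For treatment, 0 of these 100 genes passed limma's threshold in any of the 3 comparisons over genotypes (4, 5 and 6 at an unadjusted p under 0.05), and edgeR and DESeq2 called 0 as well.

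How far the 10 transcripts moved together from mouse to mouse was described after the mean of each group had been removed, over 35 mice. The strongest pair was Itpr1 with Camk4 (Pearson's r = 0.93), followed by Ryr3 with Atp2b1 (0.91), Ryr3 with Camk4 (0.83), Itpr1 with Ryr1 (0.82) and Atp2a2 with Atp2b1 (0.81). Weaker pairs included Ryr2 with Atp2a2 (0.27), Itpr1 with Atp2a2 (0.35) and Ryr1 with Atp2a2 (0.37), whereas Calb1 reached 0.54 with Ryr3 and 0.50 with Atp2b1. Camk2a and Hpca gave 0.81 with each other, and neither exceeded 0.20 with any of the other 8. Camk2a and Camk4, both CaM kinases, gave −0.20. These points share library, depth and base composition, and the values are descriptions.

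**Figure D5:**
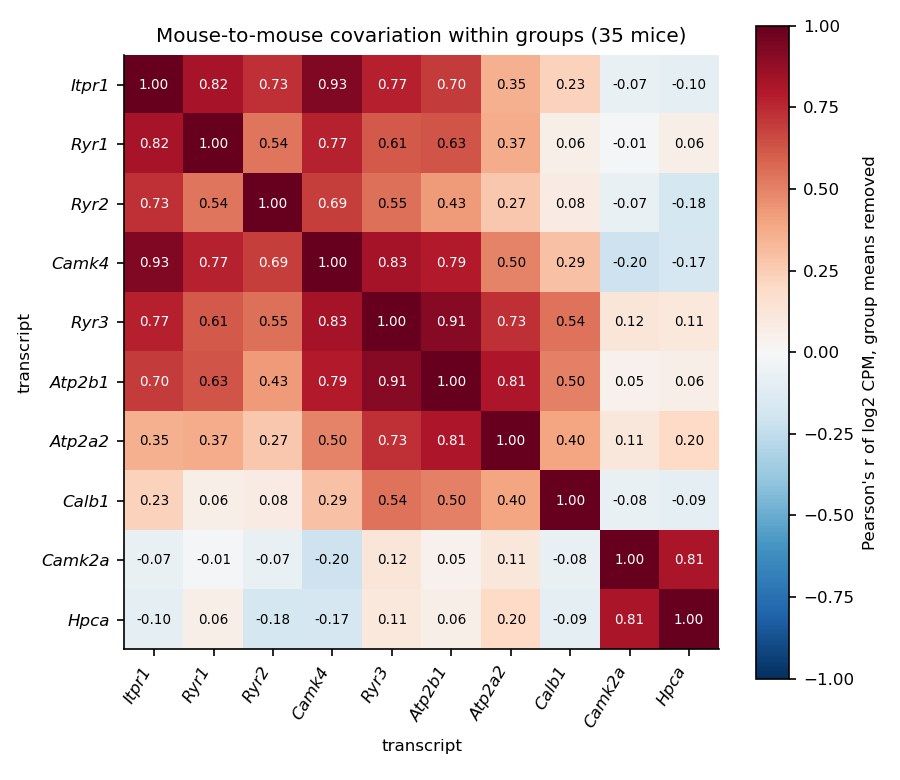
Pearson's r between each pair of transcripts over 35 mice (rows and columns, colour scale from −1 in blue to 1 in red), from log2 CPM with the 6 group means removed. Pairs among Itpr1, the ryanodine receptors, Camk4 and both pumps run from 0.27 (Ryr2 with Atp2a2) to 0.93, Calb1 reaches 0.54 with Ryr3, and Camk2a and Hpca stand at 0.81 with each other.

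The residuals were also set against properties of each library. In each mouse, long transcripts (7038 bases or more) were set against short ones (1410 bases or fewer) as a difference in mean log2 CPM. This index spanned −0.25 to 0.20 in Htt+/+ mice (median 0.074) and −0.24 to 0.17 in HttQ111/+ mice (median −0.013). With group means removed, Camk4 (r = 0.85) and Itpr1 (0.81) rose with it, as did the ryanodine receptors (0.64 to 0.69) and Atp2b1 (0.65). Atp2a2 (0.35) and Calb1 (0.17) followed it less, while Camk2a (−0.44) and Hpca (−0.52) went the other way. Camk4 rose with the index with a coding transcript of 2717 bases, and Itpr1 with one of 9870 bases. With the index as a covariate, an analysis added after seeing the data, limma still called 9 of the 10 lower. The log2 fold change was then −0.67 for Camk4, −0.44 for Itpr1, −1.28 for Ryr1 and −0.42 for Hpca. A GC index set transcripts of 58.3% GC or more against those of 42.1% or less in the same way. With it, r of the residuals was 0.68 for Hpca and 0.57 for Camk2a. For the other 8 it was negative, from −0.61 (Camk4) to −0.30 (Ryr1). With the summed markers of projection neurons, r was 0.79 for Camk2a and 0.86 for Hpca. For the other 8 it was lower, at 0.38 for Atp2a2, 0.35 for Atp2b1, 0.31 for Ryr3, 0.19 for Ryr1, 0.17 for Calb1, 0.061 for Itpr1, 0.022 for Camk4 and −0.16 for Ryr2. Calb1 went against the summed oligodendrocyte markers (r = −0.67).

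The transcripts closest to each of the 10 in these residuals were searched for among 15089 other genes, by Pearson's r over 35 mice. Itpr1 lay nearest to Camk4 (0.93) and Ppp1r9a (0.92), Ryr1 to the L-type calcium channel Cacna1c (0.85) and B430006D22Rik (0.84), and Ryr2 to Cadm2 (0.87) and Prr8 (0.82). Ryr3 lay nearest to Atp2b1 (0.91) and Lrrk2 (0.91), Atp2a2 to Osbpl8 (0.85) and Dock4 (0.83), Atp2b1 to Neto1 (0.93) and Tmem16c (0.93), and Camk4 to Itpr1 (0.93) and Syne1 (0.92). Camk2a lay nearest to the adenosine receptor Adora2a (0.84) and Rasl10b (0.84), and Hpca to Rasgrp2 (0.91) and Ppp1r9b (0.90). Calb1 lay nearest to Bhlhb9 (0.87) and Matr3 (0.79). Transcript length and GC content were not taken into account in this search, and their part in these pairs was not tested.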

How the data were processed

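RNAseq was performed on striatal RNA of 35 mice, with 1 stranded mRNA library per mouse. Paired reads were aligned by the authors with Bowtie 0.12.9 to the transcriptome of build MGSCv37, genes were quantified with RSEM 1.1.18 and the authors deposited expected counts per gene, not scaled for library size (55.6% were whole numbers). RSEM divides reads that fit several transcripts, so values of close relatives may share reads. Groups came from the labels, where ASO1 was read as Htt ASO.

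Counts were analysed in R 4.3.3. Genes kept by filterByExpr (minimum count 10, total 15) were scaled by TMM (edgeR 4.0.16) and tested with voom and limma 3.58.1, with 6 group means and p-values adjusted by Benjamini-Hochberg across 17639 genes. DESeq2 1.42.0 and edgeR's test used rounded counts. Log2 CPM for correlations used a prior count of 2. Lengths came from the longest coding transcript in GENCODE M21, known for 87.0% of genes averaging 1 CPM or more. No 2 libraries of a group agreed within sampling noise (85 pairs). Total counts, 32200158 to 38641924, limit low genes most. Promoters came from RefSeq (GRCm38.p6). Code was tested on simulated data.

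The 10 transcripts and all gene lists were chosen with earlier results of these data known. Named genes were the 10, the 2 called genes of each list with the largest genotype difference, and the 2 closest by residual correlation; Atp2a3 was named outside this rule.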

Additional observations from a re-analysis of the deposited data

Results flagged for a closer look

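The 10 transcripts were each examined in 6 groups, 60 sets in all, for a mouse that stood apart by Dixon's ratio (the gap to the nearest mouse divided by the range of the group). This flagged 4 sets, where chance flags about 1 in 20. All 4 were in Htt+/+ groups, and 3 were in the group of 5 mice on control ASO. On saline, replicate 3 was low in Atp2a2, at 959 CPM against 1110.0 CPM for the next mouse (ratio 0.703). On control ASO, replicate 3 was high in Atp2a2, at 1253 CPM against 1162 CPM (ratio 0.853). In the same group, replicate 1 was high in Ryr2, at 106 CPM against 97.0 CPM (ratio 0.748). That mouse also had the highest sum of choroid plexus markers, 1526 CPM, and without it the log2 fold change of Ryr2 by genotype was −0.18 (adjusted p = 0.000108). Replicate 2 of that group was low in Camk4, at 85.3 CPM against 96.0 CPM (ratio 0.736), still above the highest HttQ111/+ mouse at 70.0 CPM.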

How the results depend on the processing

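The genotype difference over treatments was called lower for 9 of the 10 transcripts by limma, edgeR and DESeq2, with library totals in place of TMM, with no filter or a filter at a mean of 1 CPM, with lane as a covariate, with sample weights, without the left hemistriatum mouse and without each of the 35 mice in turn. It was also 9 in 4 alternatives chosen after seeing the data: the long-transcript index or a GC index as a covariate, without the mice of lane 7, and without the mouse highest in choroid plexus markers. The log2 fold change of Ryr1 lay between −1.42 and −1.28 over these 47 alternatives, that of Camk4 between −0.80 and −0.67 and that of Itpr1 between −0.54 and −0.44. Calb1 ran from −0.054 to −0.0035, the latter with library totals, which moved the median of all genes from 0.0037 to 0.043. Among the other calcium genes, 55 to 70 were called, against 62, and over all genes 5758 to 8089, against 7024; both minima came without lane 7 and both maxima with library totals. Within treatments, 6 to 9 transcripts were called on saline, the fewest without lane 7, 7 or 8 on control ASO and 9 on Htt ASO. Calls that changed on saline were those of Atp2a2, lost also with library totals, no filter, lane as a covariate, only the saline groups and without lane 7 (adjusted p 0.0556 to 0.318), Ryr2, gained with DESeq2 or sample weights (0.0474 and 0.0279), and Ryr3, lost without lane 7 (0.0917). Treatment comparisons and interactions gave 0 of the 10 under each alternative run for them. No paired analysis was possible because the replicate numbers follow accession order and pair no mice. For Ryr1, the 95% confidence interval of Htt ASO against control ASO was −0.18 to 0.18 over both genotypes and −0.36 to 0.17 in HttQ111/+ mice alone.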
